A study of Mus musculus with 6 samples.

Results

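The genes described here are 10 markers that have been proposed to tell beige from brown fat cells. Tmem26, Tnfrsf9, Tbx1, Cd40, Klhl13 and Sp100 were proposed for beige cells, and Lhx8, Mpzl2, Epsti1 and Hspb7 for brown cells. They were found by gene symbol in the platform's annotation, which gave 24 of the 45037 probe sets other than controls, where a probe set is a group of short oligonucleotides that reads transcripts of a gene. The study measured RNA of mouse fat cells differentiated in culture from inguinal fat, a white depot under the skin, on Affymetrix mouse 430 2.0 arrays. One group of 3 arrays came from cells given 1 uM rosiglitazone for 4 days, labelled as beiging, and the other 3 arrays came from control cells without the drug, labelled as non-activated. Rosiglitazone is a thiazolidinedione that activates PPARγ, the nuclear receptor at the head of the fat cell programme. The labels name no strain, sex or age, and nothing in them says that the 3 samples of a group were separate cultures, so the error behind each p-value is that between 3 arrays and can be technical in origin.

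Brown fat cells burn fuel to release heat, and they come from a lineage close to skeletal muscle. Beige cells appear inside white depots after cold or PPARγ activation and switch on the same heat programme. Markers that separate both kinds were proposed mainly from comparisons of cell lines and depots, and several of them, such as the surface proteins TMEM26 and CD137, were put forward for sorting precursor cells rather than for reading heat production.

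Of the 10 genes described here, 6 were proposed for beige cells. Of these 6, 5 could be tested, and 0 passed the test as higher with rosiglitazone. Over all genes read by their brightest probe set 23.6% passed as higher, and 5 genes are too few to be told apart from that share. The 4 proposed for brown cells went both ways. Among 7 other tested genes proposed as beige markers, given below, 6 did pass as higher, the smallest rise being 0.10 on the log2 scale. These genes, too, were chosen with earlier results of the data known. Mpzl2 was the only one of the 10 genes that passed the test as higher, at about 3 times its control level on its brightest probe set (a fold of 3.09). Klhl13 fell most, with a log2 change of −2.03 on its brightest probe set, and Hspb7, Lhx8 and Epsti1 fell too. Cd40, Sp100, Tbx1 and Tnfrsf9 did not pass the test, and Tmem26 was too dim to be tested. In the same arrays Ucp1, the uncoupling protein of heat-producing fat, had an intensity of 1495 ± 16.9 with rosiglitazone and 5.38 ± 1.37 in control cells (SD, n = 3 each). All 3 control values lay under 16, the floor set on all values, so the rise was at least 93.4-fold.

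Of the 24 probe sets 15 were bright enough to test, and they covered 9 genes. A probe set was tested when its mean over the 6 arrays exceeded 27.3, which left out the dimmest 40% of all probe sets, and it passed at an adjusted p under 0.05 (limma, Benjamini-Hochberg over 27022 probe sets). Among the 15, 3 were higher and 6 were lower with rosiglitazone, while 21.2% of all probe sets tested passed as higher and 30.7% as lower. The 9 that passed are 60% of the 15, near the 51.9% of all probe sets tested, so the number that passed is no result about these genes. The groups did not overlap in the same 3 probe sets on the high side and 6 on the low side, against 24.2% and 34.1% of all probe sets tested (58.3% in either direction). By proposed lineage, 0 of 8 beige probe sets were higher and 2 lower, and 3 of 7 brown probe sets were higher and 4 lower. Changes of at least 2-fold that passed made up 1.37% of all probe sets tested on the high side and 3.94% on the low side, and all 3 Mpzl2 and both Klhl13 probe sets were among them.

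**Figure D1:**
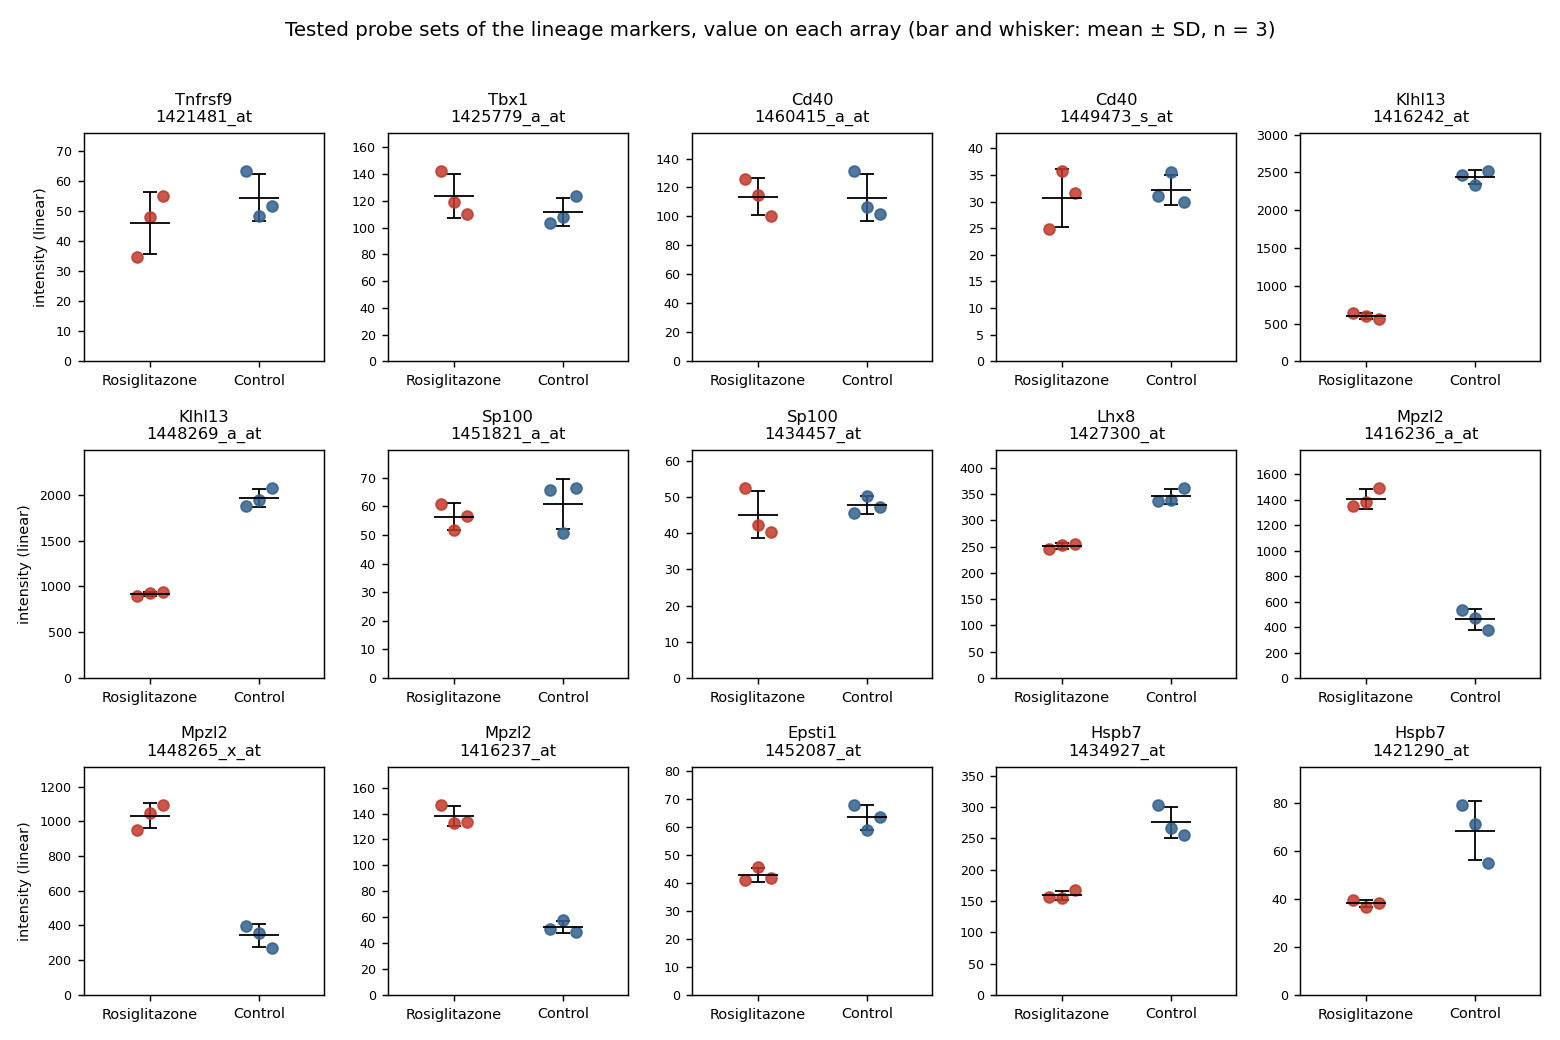
Intensity on the deposited linear scale (vertical axes from 0, each panel with its own range) of the 15 tested probe sets, for the 3 rosiglitazone arrays (red, left) and the 3 control arrays (blue, right), with the mean and SD of each group in black. The groups are apart in the panels of Klhl13, Lhx8, Mpzl2, Epsti1 and Hspb7 and overlap in those of Tnfrsf9, Tbx1, Cd40 and Sp100.

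How the arrays were scaled bears on small changes. Over all calls 40.8% were higher on the deposited scale, 52.4% after quantile normalization and 60.4% after median centring, which moved the median log2 change of all probe sets from −0.04 to 0.08. Every log2 change below is on the deposited scale and would be about 0.12 higher on the centred scale for a probe set well above the floor. The same counts of 3 higher and 6 lower members were found after quantile normalization, where 27.4% of all probe sets tested passed as higher and 24.9% as lower (52.3% in all), and after median centring, where 32.2% passed as higher and 21.1% as lower (53.3% in all). With only the brightest probe set of each gene, 1 gene was higher and 4 were lower, against 23.6% and 35.8% of the 12952 genes tested (59.4% in all). Array medians lay between 44.6 and 46.8, and arrays correlated at 0.994 to 0.996 within a group and at 0.984 to 0.985 between groups.

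**Figure D2:**
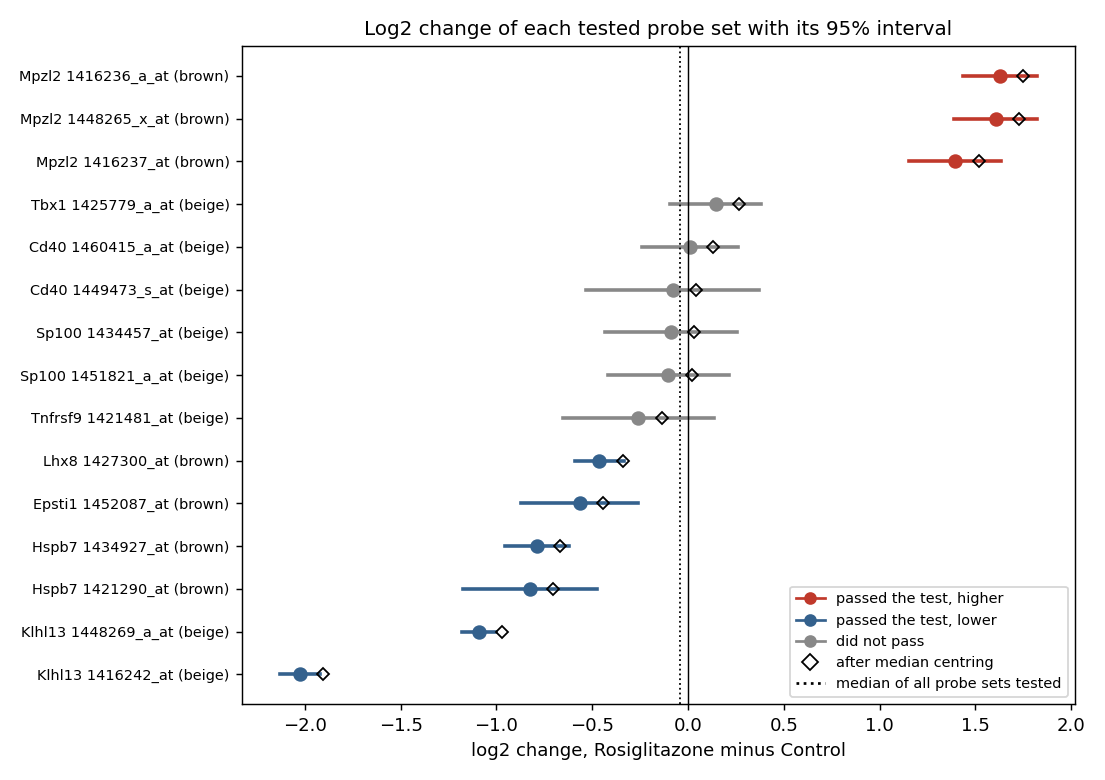
Log2 change of each tested probe set, rosiglitazone minus control (horizontal axis, points with 95% intervals), with the value after median centring as an open diamond and the median of all probe sets tested as a dotted line. The 3 probe sets of Mpzl2 lie from 1.40 to 1.63, the 2 of Klhl13 at −1.09 and −2.03, and the 6 grey ones cover 0.

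Fat cell genes were bright in both groups. Adiponectin (Adipoq) had an intensity of 13158 ± 238 with rosiglitazone and 12828 ± 147 in control cells, and the fatty acid binding protein gene Fabp4 17148 ± 245 and 17647 ± 326 (SD, n = 3 each). Neither passed the test (after median centring both passed as higher, at 0.16 and 0.08). Of 7 tested adipocyte markers 3 fell and 1 rose (8 in the list, 4 rose and 3 fell after median centring), with sums of 64751 to 65528 with rosiglitazone and 69952 to 70971 in control cells. The falls were Retn (log2 change −0.87), the drug's receptor gene Pparg (−0.36) and the lipase gene Lipe (−0.23), and the lipid droplet gene Cidec rose by 0.28 (limma adjusted p at or below 0.00019). Markers of other cell types moved in the same comparison. Over all genes with 1 probe set each, 23.6% passed as higher and 35.8% as lower. Of 11 tested macrophage markers 10 fell (13 on the array, Cd163 under the floor on every array), and their summed intensity was 4184 to 4554 with rosiglitazone and 12290 to 13430 in control cells. The 7 tested fibroblast and preadipocyte markers all fell (8 on the array), with sums of 11100 to 11544 and 21104 to 21592, and 4 of 6 mural and smooth muscle markers fell while 1 rose, with sums of 4616 to 4746 and 7941 to 8410. Of the lymphocyte list Cd3e, Cd4, Cd79a and Nkg7 were under the floor on all 6 arrays, and 1 of 3 tested markers fell (9 on the array). The fall was that of Ptprc, a gene not particular to lymphocytes, with 134.7 ± 4.12 with rosiglitazone and 303.3 ± 5.39 in control cells. Cd8a (109.8 ± 4.43 and 109.6 ± 9.34) and Cd79b (36.2 ± 9.42 and 26.0 ± 8.87) did not pass (SD, n = 3 each). The sums of the list, to which Ptprc belongs, were 330 to 367 with rosiglitazone and 499 to 507 in control cells, and so do not read lymphocytes alone. Tie1 of the endothelial list and Myod1, Myh1 and Tnnt3 of the skeletal muscle list were also under the floor on all arrays. Of 3 tested endothelial markers 2 fell and 1 rose (8 on the array, sums of 232 to 249 and 445 to 453), and of 3 tested skeletal muscle markers 1 rose (8 on the array, sums of 447 to 520 and 429 to 458). The part of these shifts in the changes of the lineage markers was not tested, and in RNA from whole cultures fewer cells of a type and less RNA per cell cannot be told apart.

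Among the surface receptors, Tmem26, which encodes a membrane protein proposed for beige cells and their precursors, was at the edge of detection. Its brighter probe set read 8.49, 12.7 and 23.1 on the rosiglitazone arrays and 22.9, 17.4 and 19.0 on the control arrays. The other read 14.5, 10.9 and 4.62 with rosiglitazone and 13.0, 16.4 and 8.85 in control cells. The groups overlapped on both, and by mean intensity these probe sets stood at percentiles 30.1 and 21.4 of all probe sets, so no level and no change could be read.

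Tnfrsf9 encodes CD137, also called 4-1BB, a TNF receptor family member known as a costimulatory receptor of T cells. Its tested probe set read 34.9, 48.2 and 55.2 with rosiglitazone and 63.4, 48.3 and 51.9 in control cells. The lowest value was a rosiglitazone array and the highest a control array, and the groups overlapped. The log2 change was −0.26 (SE 0.19, 95% interval −0.65 to 0.14, limma adjusted p = 0.267), an interval that leaves room for a fall to 0.635-fold and for a rise to 1.10-fold. A second probe set read 19.4 to 24.4 with rosiglitazone and 14.6 to 27.0 in control cells, and the last 6.40 to 15.3 and 10.8 to 23.6, and neither was bright enough to test.

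Cd40, a second TNF receptor family gene, is known from B cells, macrophages and dendritic cells. Its brightest probe set read 125.7, 114.6 and 100.2 with rosiglitazone and 131.3, 106.3 and 101.5 in control cells. The ranges almost coincided, and the log2 change was 0.01 (SE 0.12, 95% interval −0.24 to 0.26, limma adjusted p = 0.956). A dimmer one read 24.9, 35.7 and 31.6 against 31.1, 35.5 and 30.0, with a log2 change of −0.08 (SE 0.21, limma adjusted p = 0.785), and the last was too dim to test at 8.94 to 26.2 against 11.02 to 29.4. Macrophage markers fell in the same arrays. Csf1r, the receptor gene on which macrophages depend, had 356.4 ± 15.1 with rosiglitazone and 993 ± 60.2 in control cells (SD, n = 3 each), a log2 change of −1.48.

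The known partners of these receptors gave a mixed picture. The ligand gene of CD137, Tnfsf9, was too dim to test at 23.7 ± 3.16 with rosiglitazone and 28.7 ± 2.13 in control cells, and the CD40 ligand gene Cd40lg did not pass (log2 change 0.34, limma adjusted p = 0.256). Of 10 tested ligand, adaptor and NF-κB pathway genes 6 fell and 0 rose, their median log2 change being −0.23 (−0.04 over all probe sets tested); after median centring 4 fell and 1 rose. The 6 of 10 that passed are near the 59.4% of all genes that passed with 1 probe set each. The adaptor genes Traf2 and Traf6 did not pass, with log2 changes of 0.05 and 0.12 (limma adjusted p = 0.675 and 0.179), nor did the NF-κB subunit gene Nfkb2 (0.03, adjusted p = 0.811). Relb, an NF-κB subunit of the non-canonical arm, read 46.1 ± 2.90 with rosiglitazone and 78.5 ± 10.7 in control cells, and fell by 0.76 on the log2 scale (limma adjusted p = 0.00031). Birc3, an inhibitor of apoptosis that docks on TNF receptor adaptors, fell by 0.70, and its relative Birc2 fell by 0.43.

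Of the 2 transcription factors, Tbx1, a T-box gene known for its role in the embryonic pharynx and heart, read 142.2, 118.9 and 110.0 with rosiglitazone and 103.5, 107.7 and 123.5 in control cells. Rosiglitazone array 1 was the highest of the 6 and control array 1 the lowest, with the other values mixed. The log2 change was 0.14 (SE 0.11, 95% interval −0.09 to 0.38, limma adjusted p = 0.301), and after median centring it was 0.27 with an adjusted p of 0.0504, just outside the threshold (0.0504 to 0.793 over the alternatives). The gene has 1 probe set on the array, so no second reading was to be had.

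Lhx8, a LIM-homeobox gene known from forebrain cholinergic neurons and oocytes and proposed as a brown marker, fell. It read 244.7, 252.7 and 254.7 with rosiglitazone and 335.8, 339.5 and 361.6 in control cells. The arrays of a group lay close together and the groups were well apart, with a log2 change of −0.46 (SE 0.06, 95% interval −0.59 to −0.33, limma adjusted p = 8.5e-06). This is a modest change on these arrays, since 14.9% of all probe sets tested had a larger fall. Among 7 tested T-box, LIM-homeobox and LIM-binding genes 4 fell and 1 rose, with a median of −0.52 (3 and 1 after median centring). The 5 that passed became 3 without rosiglitazone array 2, and of all genes with 1 probe set each 59.4% passed. Tbx15, a T-box gene with a role in fat cells of some depots, read 336.1 ± 10.5 with rosiglitazone and 595.8 ± 37.7 in control cells, a log2 change of −0.82, and Tbx18 had a log2 change of −0.52. The cofactor gene Ldb1, whose product binds LIM-homeodomain proteins, had −0.53, while its relative Ldb2 rose by 0.32 (limma adjusted p at or below 0.0113 for each of the 4).

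The start region of Lhx8 is shown because the 3 brown markers that fell can be compared with Klhl13 in this window. The windows run from 250 bases before to 50 bases after a RefSeq transcript start (GRCm38.p6, written in the direction of the gene), and RefSeq windows matched 8 of the 10 genes, all but Mpzl2 and Cd40. Capitals mark the half-site AGGTCA, the letters that nuclear receptors such as PPARγ with its partner RXR read as a pair, searched on both strands. The Lhx8 window, chr3:154330511-154330810 on the minus strand, holds no such letters.
Lhx8: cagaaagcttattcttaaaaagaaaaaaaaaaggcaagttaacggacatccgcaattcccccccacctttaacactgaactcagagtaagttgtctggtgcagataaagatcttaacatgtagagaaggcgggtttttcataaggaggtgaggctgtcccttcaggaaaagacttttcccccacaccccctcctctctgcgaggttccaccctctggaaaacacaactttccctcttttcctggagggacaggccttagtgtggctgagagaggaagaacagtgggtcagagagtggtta

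Mpzl2 encodes an immunoglobulin-type adhesion protein of the myelin protein zero family, first known as EVA1 from thymus epithelium, and it is one of the markers that separated brown from white and beige fat. Its brightest probe set read 1346, 1380.0 and 1492 with rosiglitazone and 533, 471 and 375 in control cells. The lowest rosiglitazone array was more than 2-fold above the highest control array. The mean was 1406 ± 76.4 with rosiglitazone and 460 ± 79.5 in control cells (SD, n = 3 each), a log2 change of 1.63 (SE 0.09, 95% interval 1.43 to 1.82, limma adjusted p = 4.7e-10). Only 77 of the 27022 probe sets tested had a larger rise.

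The other 2 probe sets of Mpzl2 rose as well, at lower intensity. One, whose suffix marks it as open to cross-hybridisation, read 952, 1048 and 1096 with rosiglitazone and 397, 359 and 272 in control cells (log2 change 1.61, SE 0.10, limma adjusted p = 2.1e-09). The dimmest read 146.9, 133.0 and 133.8 against 51.0, 57.9 and 48.6 (log2 change 1.40, SE 0.11, limma adjusted p = 3.8e-08). Between the probe sets of this gene the changes differed by 0.23 at most (exact permutation test, two-sided, p = 0.2 to 0.6). Control array 3 was the lowest of its group on all 3 probe sets, and without it the log2 changes were 1.49, 1.45 and 1.34. The related genes Mpzl1 and Mpzl3 did not pass, with log2 changes of −0.11 and 0.31 (limma adjusted p = 0.352 and 0.138; after median centring 1 of the 2 rose). Of 22287 probe sets of other genes, the 3 genes whose profile over the 6 arrays lay nearest to Mpzl2, measured as the mean absolute difference of log2 values centred on the control mean, were Cox6b2 (0.06), the cation channel gene Trpv2 (0.07) and Sdcbp2 (0.08).

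Klhl13 stood at the other end. It encodes a BTB and kelch domain adaptor that brings substrates to the cullin-3 ubiquitin ligase, in human cells together with KLHL9. Its brightest probe set read 634, 605 and 558 with rosiglitazone and 2465, 2331 and 2518 in control cells. The highest rosiglitazone array was far below the lowest control array. The log2 change was −2.03 (SE 0.05, 95% interval −2.13 to −1.92, limma adjusted p = 4.6e-14), 4.07-fold lower, and 55 of the 27022 probe sets tested had a larger fall.

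The second probe set of Klhl13 read 897, 933 and 936 with rosiglitazone and 1875, 1946 and 2077 in control cells. It fell too, with a log2 change of −1.09 (SE 0.04, limma adjusted p = 7.2e-12), and its 95% interval, which reached down to −1.18, did not touch that of the first. Its log2 value exceeded that of the first probe set by 0.62 ± 0.12 on the rosiglitazone arrays and was lower than it on the control arrays, where the difference was −0.31 ± 0.07 (SD, n = 3 each). The changes thus differed by 0.93, the widest gap among the 7 pairs of probe sets of one gene compared here, and an exact two-sided permutation test gave p = 0.1, the smallest that 3 against 3 arrays allow (0.7 adjusted over the 7 pairs). Both probe sets carry the same source accession in the annotation, and the second has the suffix given to sets that match several transcripts of a gene.

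RefSeq places the transcript starts of Klhl13 in 5 windows on the X chromosome, in 3 separate places. The upstream place is shown because it alone of these holds an AGGTCA half-site, which begins 20 bases past the transcript start of the window chrX:23365033-23365332 on the minus strand.
Klhl13: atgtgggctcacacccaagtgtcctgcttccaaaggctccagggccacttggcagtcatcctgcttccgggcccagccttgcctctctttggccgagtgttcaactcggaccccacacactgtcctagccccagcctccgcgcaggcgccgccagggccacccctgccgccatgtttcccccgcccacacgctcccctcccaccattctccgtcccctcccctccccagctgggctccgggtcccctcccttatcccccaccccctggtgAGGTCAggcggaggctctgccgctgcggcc

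The windows at chrX:23285510-23285809, chrX:23285758-23286057 and chrX:23266753-23267052 hold none. Of all 32851 RefSeq windows 16.3% hold at least 1 half-site, and 13 hold the paired form, a direct repeat of it with 1 base of any kind between. Of the 15 windows of the lineage markers 4 hold the half-site, in Klhl13, Epsti1 and Tnfrsf9, and 0 hold the paired form. The Klhl13 windows chrX:23365014-23365313 and chrX:23365033-23365332 overlap and hold the same half-site. Counted by gene, 3 of the 8 members with windows hold it, against 18.1% of 27025 genes. A match in these letters is a description of the sequence and not a binding site.

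Few genes of the cullin-3 list, which holds partners of Klhl13 and other adaptors of the ligase, passed on the deposited scale. Of 8 tested genes 2 fell and 6 did not pass, with a median of −0.01, while 59.4% of all genes passed with 1 probe set each. The partner Klhl9 read 2605 with rosiglitazone and 2639 in control cells (log2 change −0.02, limma adjusted p = 0.639), and it passed as higher, at 0.10, after median centring. The scaffold gene Cul3 read 2634 ± 73.6 and 2920 ± 18.0, with a log2 change of −0.15 (limma adjusted p = 0.0008) that was −0.03 and no longer passed after median centring, where 4 of the 8 genes passed as higher and 1 as lower. Kctd10, another cullin-3 adaptor gene, fell by 0.61. The genes with profiles nearest to Klhl13 were Tmem176a (0.03), the folate enzyme gene Aldh1l1 (0.06) and the matrix glycoprotein gene Thbs1 (0.07), of 22288 probe sets compared.

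Sp100 and Epsti1 are both known as interferon-induced genes. Sp100 encodes a component of PML nuclear bodies, and it was proposed as a beige marker. Its 2 probe sets read 60.8, 51.7 and 56.7 with rosiglitazone against 65.5, 50.8 and 66.4, and 52.5, 42.4 and 40.4 against 45.5, 50.4 and 47.2 in control cells. The groups overlapped on both, with log2 changes of −0.10 (SE 0.15, 95% interval −0.42 to 0.21) and −0.09 (SE 0.16, 95% interval −0.44 to 0.26; limma adjusted p = 0.597 and 0.678). Of all genes with 1 probe set each, 35.8% passed as lower and 23.6% as higher. Of 6 tested genes of nuclear body proteins and other Sp100 relatives 5 fell and 0 rose, with a median of −0.22 (3 fell and 1 rose after median centring). The 5 that passed became 3 without control array 3, without rosiglitazone array 1 or without rosiglitazone array 2. Among them Pml, which encodes the body's scaffold, read 70.0 ± 6.31 with rosiglitazone and 96.4 ± 11.1 in control cells, a log2 change of −0.46 (limma adjusted p = 0.00504), and Trim27 had the same change of −0.46.

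Epsti1, proposed as a brown marker, was read by 4 probe sets, of which 1 was tested. That one read 41.2, 45.8 and 41.7 with rosiglitazone and 68.1, 59.0 and 63.6 in control cells, with no overlap. The log2 change was −0.57 (SE 0.14, 95% interval −0.87 to −0.26, limma adjusted p = 0.00358). The level was low, near the middle of all probe sets (percentile 52.7), and with a floor of 64 in place of 16 the change was −0.03 and did not pass (adjusted p 0.00154 to 0.499 over the alternatives). The other 3 probe sets stayed between 1.12 and 28.7 on all arrays, and the groups overlapped on each of them. The start region of Epsti1, chr14:77903989-77904288 on the plus strand, is shown because it holds a half-site on the opposite strand, beginning 167 bases before the start (TGACCT in this direction).
Epsti1: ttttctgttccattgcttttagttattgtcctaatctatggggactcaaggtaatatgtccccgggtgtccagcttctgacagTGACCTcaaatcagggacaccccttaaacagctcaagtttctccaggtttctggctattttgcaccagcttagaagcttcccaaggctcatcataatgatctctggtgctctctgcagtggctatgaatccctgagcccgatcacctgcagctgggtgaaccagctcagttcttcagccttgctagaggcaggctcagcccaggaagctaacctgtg

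Other interferon-stimulated genes went both ways. Of 17 tested 5 rose and 7 fell, with a median of −0.12 (6 and 5 after median centring, median 0.00). Over all genes with 1 probe set each, 23.6% passed as higher and 35.8% as lower. The falls of the list were led by Gbp2, a guanylate binding protein gene, with 350 ± 29.4 with rosiglitazone and 725 ± 57.3 in control cells (log2 change −1.05), the chemokine gene Cxcl10 (−0.77), the RNA sensor gene Ifih1 (−0.69) and Ifit2 (−0.62), with limma adjusted p at or below 0.00888. The rises were those of Mx1 (0.51), Oasl2 (0.39), Usp18 (0.38), Ifit1 (0.34) and Ifit3 (0.25), with limma adjusted p at or below 0.0445. The fall of Epsti1 stood beside the fall of 10 of 11 macrophage markers given above, and the part of such cells in it was not tested.

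Hspb7 encodes a small heat shock protein of heart and skeletal muscle, and it was proposed as a brown marker. Its brightest probe set read 155.7, 154.1 and 167.8 with rosiglitazone and 303.9, 267.2 and 255.9 in control cells. The groups were far apart, with a log2 change of −0.79 (SE 0.08, 95% interval −0.96 to −0.62, limma adjusted p = 4.6e-07). A dimmer probe set gave nearly the same change: it read 39.6, 36.6 and 38.5 against 79.4, 71.2 and 55.0, a log2 change of −0.83 (SE 0.16, limma adjusted p = 0.00051), which with a floor of 64 became −0.15 and did not pass. The last lay at 11.6 to 15.5 with rosiglitazone and 14.6 to 19.96 in control cells, too dim to test.

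The small heat shock proteins and their partners did not share 1 direction. Of 7 tested 4 fell and 2 rose, with a median of −0.41, and the same numbers were found after median centring. Over all genes with 1 probe set each, 35.8% passed as lower and 23.6% as higher. Cryab, which encodes αB-crystallin, read 1288 ± 7.35 with rosiglitazone and 3798 ± 93.2 in control cells (log2 change −1.56), Hspb1 read 2727 ± 118 and 5881 ± 188 (−1.11), and Flnc, the filamin of muscle, had −1.07. Hspb6 rose by 0.65 (limma adjusted p at or below 6.7e-06 for each of these 4). The defining skeletal muscle genes Myod1, Myh1 and Tnnt3 were under the floor on every array of both groups. The other tested genes of that list were brighter: Des, the desmin gene, read 168 ± 7.99 with rosiglitazone and 146 ± 10.8 in control cells and passed as higher (log2 change 0.21, limma adjusted p = 0.0498), while Acta1 read 152 ± 13.3 and 161 ± 18.3 and Ckm 102 ± 23.1 and 77.7 ± 9.85 (SD, n = 3 each), and neither passed. Their part in the change of Hspb7 was not tested.

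The start region of Hspb7, chr4:141420529-141420828 on the plus strand, is shown as the last of the markers that fell, and it holds no AGGTCA on either strand.
Hspb7: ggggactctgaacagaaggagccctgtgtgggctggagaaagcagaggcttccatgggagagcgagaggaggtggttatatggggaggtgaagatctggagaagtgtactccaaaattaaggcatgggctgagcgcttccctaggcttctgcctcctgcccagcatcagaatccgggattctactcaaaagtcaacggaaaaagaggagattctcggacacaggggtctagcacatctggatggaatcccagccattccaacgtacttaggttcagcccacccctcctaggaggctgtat

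**Figure D3:**
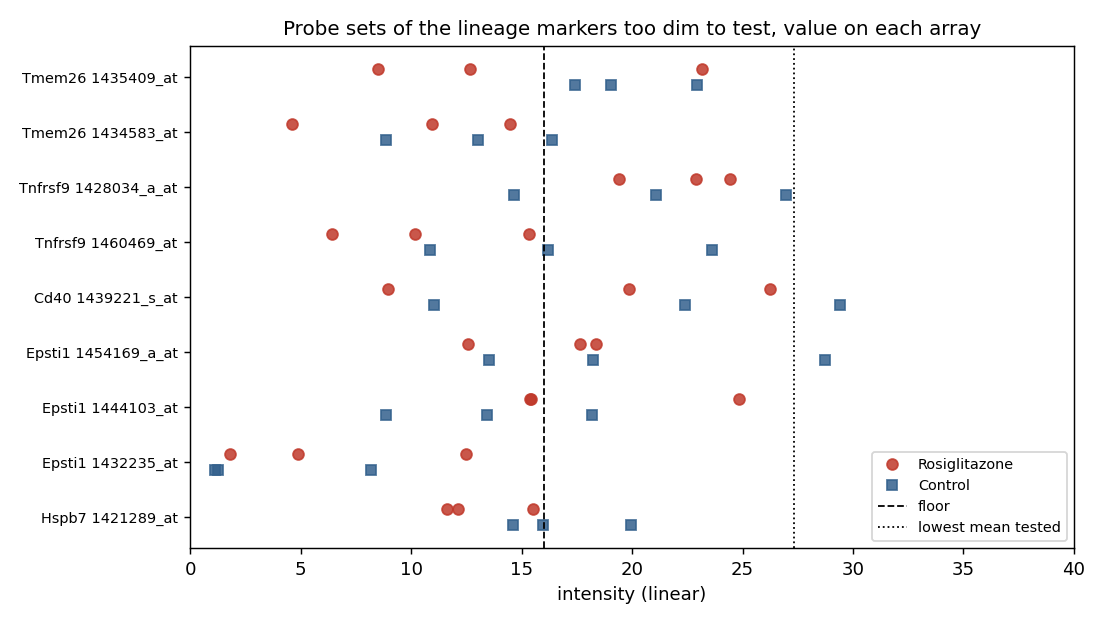
Intensity on the deposited linear scale (horizontal axis) of the 9 probe sets of the lineage markers that were too dim to test, for rosiglitazone arrays (red circles) and control arrays (blue squares), with the floor of 16 and the lowest mean tested of 27.3 as vertical lines. Of the 54 values 31 were at or under the floor, the highest was 29.4, and the groups overlapped in all 9.

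The dim probe sets add no change of their own. With no filter on low values the smallest adjusted p among these 9 was 0.575 (limma, over 45037 probe sets). The values can only bound the levels, since 28.0% to 29.0% of all probe sets on an array lay at or under the floor.

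Set beside the other markers proposed for each kind of fat cell, the 10 genes gave fewer rises than the heat programme, a difference that was not tested. The 10 genes and all lists were chosen with earlier results of these data known, so the comparison only describes them and is no evidence. All 8 tested thermogenic genes rose, with a median log2 change of 2.47, genes under the floor in control cells being held at their bound. The smallest rise was that of Dio2 (0.27, limma adjusted p = 0.0389), and 7 of the 8 passed at an adjusted p under 0.01. The lipid droplet gene Cidea had 4611 ± 140 with rosiglitazone and 52.8 ± 6.38 in control cells. Among 7 other tested genes proposed as beige markers 6 rose and 1 fell, with a median of 0.52 (6 and 0 after median centring). The smallest of these rises was that of Shox2 (0.10, limma adjusted p = 0.0324). Fgf21, a metabolic hormone gene, was at least 9.46-fold higher, the potassium channel gene Kcnk3 rose by 1.46, the carbonic anhydrase gene Car4 by 0.57 and the ATP-gated channel gene P2rx5 by 0.52, while Cited1 was under the floor on all arrays. Among 8 other tested brown markers 4 rose and 2 fell, with a median of 0.28 (5 and 2 after median centring). Pdk4, a kinase that shuts off pyruvate oxidation, rose by 1.17, Prdm16, a regulator of brown fate, by 0.69 and Oplah by 0.46, and the homeobox gene Meox2 had −0.71. The classical brown marker Zic1 was too dim to test, at 12.8 ± 0.78 with rosiglitazone and 18.4 ± 2.41 in control cells. Of 9 tested white markers 5 fell and 2 rose, with a median of −0.40 (5 and 3 after median centring). The falls were led by leptin (Lep, −5.02) and Wfdc21 (−1.95), and the rises were those of Nnat (0.69) and Slc7a10 (0.48). Lep read 19.1 ± 7.52 with rosiglitazone, with 1 of the 3 arrays at or under the floor, so the size of its fall is limited by the floor. Beside these lists, 23.6% of all genes with 1 probe set each passed as higher and 35.8% as lower.

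**Figure D4:**
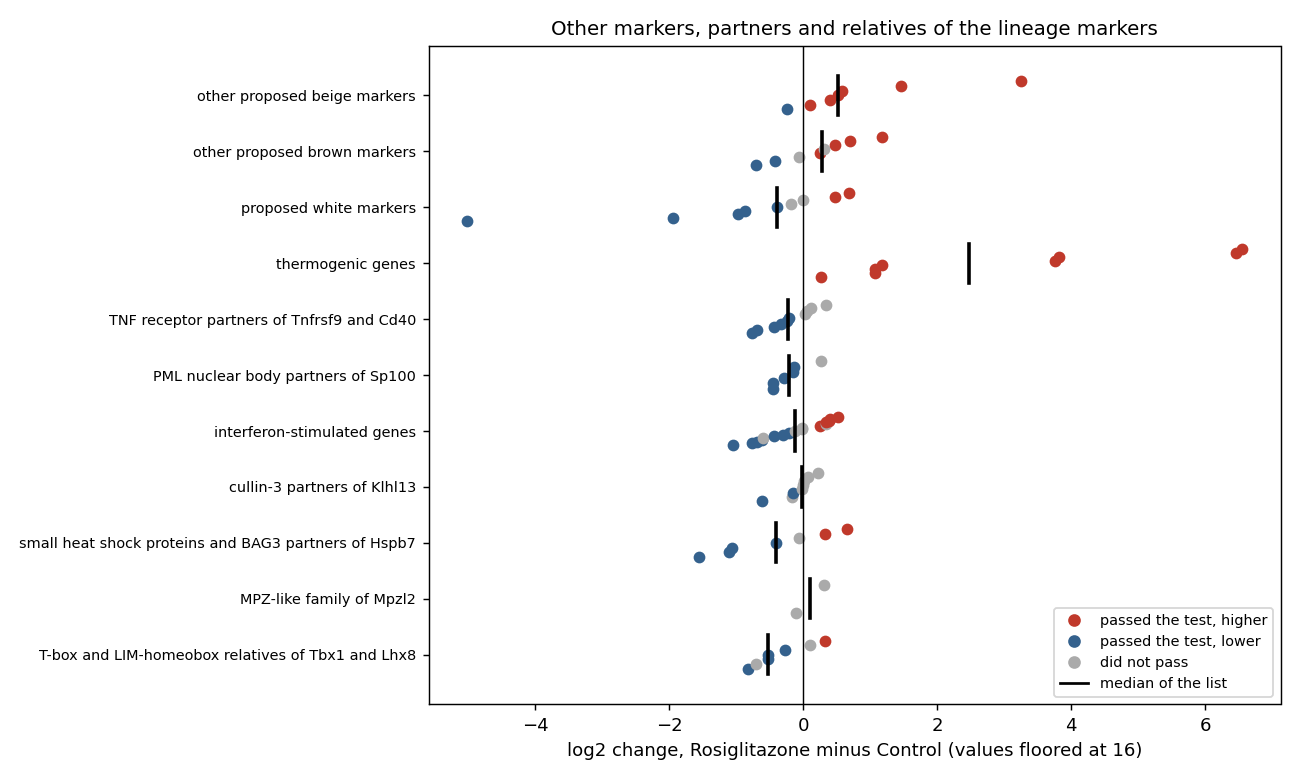
Log2 change, rosiglitazone minus control (horizontal axis), of each tested gene in the 11 lists of other markers, partners and relatives, with genes that passed the test as higher in red, as lower in blue and the others in grey, and the median of each list as a black bar. Genes under the floor on all control arrays (Ucp1, Otop1 and Fgf21) are drawn at their lower bound; the thermogenic list lies wholly above 0, and the medians of the partner lists of Tnfrsf9 and Cd40, of Sp100 and of Klhl13 are −0.23, −0.22 and −0.01.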

How the data were processed

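Total RNA of 6 cultured fat cell samples was purified with TRIzol and QIAGEN RNeasy mini columns and labelled as biotinylated cRNA, per the labels. The deposited values are probe set intensity on a linear scale; no source used here gives the software with which the authors corrected, summarized and scaled them. Samples were grouped by title, since the labels' treatment text names the drug for all 6. Probe sets were named from the platform annotation (34945 with 1 symbol, 932 with several, 9160 with none), and 64 controls were left out. Values under 16 were set to 16 and log2 was taken. The dimmest 40% of probe sets by mean over the 6 arrays were not tested. Differences were fitted in R 4.3.3 with limma 3.58.1 (lmFit, eBayes with a variance trend, no covariate, two-sided), with Benjamini-Hochberg adjustment over all 27022 probe sets tested. The fit was tested on simulated data. Fold bounds use the floor. The number of arrays limits the precision.

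The 10 genes and the lists were chosen with earlier results of these data known. Their assignment to beige, brown or white cells follows general knowledge of the literature, is not in the labels and was not checked here. From each list up to 4 genes that passed with the largest change could be named, or the 2 brightest where none passed. Not all of these were named. The macrophage, fibroblast and preadipocyte, mural and smooth muscle, and endothelial lists have none of them above. Rela, Atrx, Daxx, Elovl3 and Igfbp3 of other lists were left out too. For Mpzl2 and Klhl13, the largest rise and fall, 3 genes of nearest profile were named. Ucp1, Cidea, Adipoq, Fabp4 and Cul3 were named whatever their values. The remaining genes named from the lists (Csf1r, Cd8a, Cd79b, Tnfsf9, Cd40lg, Traf2, Traf6, Nfkb2, Klhl9, Mx1, Oasl2, Usp18, Ifit1, Ifit3, Nnat, Slc7a10, Zic1, Cited1, Shox2, Dio2, Acta1, Ckm and those under the floor) were chosen after their values were seen. Each gene of a list was read from its brightest probe set with 1 symbol. The alternatives were other filters, scalings, floors and variance models, 1 value per gene, an adjusted p under 0.01, the replicate number as a block and each array left out. Replicate numbers do not pair the samples: the deviations of same-numbered arrays correlated at −0.04, −0.02 and 0.02.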

Additional observations from a re-analysis of the deposited data

How the results depend on the processing

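All 9 calls among the lineage markers kept their direction under every alternative in which the probe set was tested, and they kept their side of the threshold with 2 exceptions, both with a floor of 64: Epsti1 had −0.03 (adjusted p = 0.499) and the dimmer Hspb7 probe set −0.15 (adjusted p = 0.227). These 2 probe sets lie near or under that floor. With 1 probe set per gene or the mean of probe sets, the count over all features was 7692 and 7191 instead of 14015 and the count of higher members was 1 and 1 instead of 3, because fewer features were tested. Without each array in turn the count over all probe sets ranged from 12406 to 13586, with 3 members higher and 6 lower each time. With the replicate number as a block 13777 probe sets passed (3 members higher and 6 lower), and no call among the members changed. Leaving out the lowest 60% removed Epsti1 and the dimmer Hspb7 probe set, and 4 members were lower. The passing Sp100 partners and T-box and LIM genes were 3 instead of 5 in each list with no filter and at an adjusted p under 0.01. For probe sets near the floor, signal over background limits what can be seen.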
